A study of Drosophila melanogaster with 3 samples.

Results

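Binding of Sox15 was mapped by chromatin immunoprecipitation and sequencing (ChIP-seq) in whole Drosophila melanogaster prepupae of pooled sexes, and the weak end of the resulting peak list is described here. The animals came from a stable line that makes Sox15 with green fluorescent protein (eGFP) at its C terminus, and an antibody to GFP pulled down the tagged protein. All 3 biological replicates belong to that 1 group, so there was no contrast between conditions, and whole animals give no information on which tissue a peak comes from. The members are the peaks of the deposited pooled list that were left out of the optimal irreproducible discovery rate (IDR) set and whose summit, the point of highest signal, lay over 500 bp from every annotated transcript start site. They are called weak distal peaks. There were 7224 of them among 14164 pooled peaks. Of the other pooled peaks, 4555 were in the IDR set, and 2385 were equally weak but lay within 500 bp of a start site. The 2674 IDR peaks that also lay over 500 bp from every start site, called reproducible distal peaks, served as the comparison.

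Proteins of the Sox family carry an HMG domain, which enters the minor groove of DNA at short A- and T-rich sites with the core AACAAT and bends the helix. Fly Sox15 is known from the wing hinge, where it restrains wingless expression, and from the socket cells of sensory bristles. A peak in ChIP-seq can come from direct contact with DNA, from contact through other proteins, or from chromatin that is easily sheared and recovered. The deposited lists do not separate these sources.

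Membership was defined by measured values, since the IDR set is the top of the pooled list. The strongest weak distal peak had a signal of 116.578 and the weakest IDR peak one of 116.584, and the closest weak peaks on either side of the distance limit lay 501 and 500 bp from a start site. Signal is the deposited value of each peak, on an unstated scale. Weak distal peaks ran down to 46.1, with a median of 58.1. The median −log10 q-value of the list was 0.302 for weak distal peaks, which is a q-value of 0.499. Of the 7224 peaks, 1248 (17.3%) had a q-value of at most 0.05 and 481 (6.66%) one of at most 0.01, whereas all 2674 reproducible distal peaks passed both limits. These figures restate how the peaks were selected and carry no test.

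The windows below are examples from the strong end of the weak distal peaks and are not typical of the class. The first 6 cover 101 bases centred on a summit and were taken in order of signal, with and without the Sox core, from introns, intergenic DNA, a coding exon and a non-coding exon. Their pooled signals ran from 97.7 to 116.578, against a class median of 58.1. All 6 were matched in all 3 replicate lists, as were 32.9% of the class. Most were taken for holding AACAAT, which 21.2% of weak summits had within 100 bp. Capitals mark AACAAT or its reverse complement where the window has it, and otherwise TATAAA on either strand. All are given 5′ to 3′ on the plus strand from the RefSeq Release 6 assembly, which is dm6.
bves intron, chrX:21068145-21068245: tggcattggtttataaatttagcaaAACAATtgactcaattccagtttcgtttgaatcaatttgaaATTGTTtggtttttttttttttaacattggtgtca
Evi5 intron, chrX:11451712-11451812: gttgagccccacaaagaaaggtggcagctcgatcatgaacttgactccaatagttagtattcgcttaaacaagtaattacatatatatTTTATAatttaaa
Rubicon, nearest gene, intergenic, chrX:8667881-8667981: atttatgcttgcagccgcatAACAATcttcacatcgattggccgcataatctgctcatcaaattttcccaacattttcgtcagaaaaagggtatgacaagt
Syx7, nearest gene, intergenic, chr3L:21453839-21453939: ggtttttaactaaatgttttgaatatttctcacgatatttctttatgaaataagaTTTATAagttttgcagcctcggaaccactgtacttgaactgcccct
CG1632 coding exon, chrX:8271913-8272013: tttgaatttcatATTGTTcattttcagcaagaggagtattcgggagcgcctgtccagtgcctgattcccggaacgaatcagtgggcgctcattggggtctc
lncRNA:CR46006 non-coding exon, chr3L:10359551-10359651: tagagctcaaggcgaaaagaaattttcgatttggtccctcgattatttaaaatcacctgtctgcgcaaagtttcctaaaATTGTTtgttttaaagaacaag

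The other 3 windows cover 201 bases and were taken for the eight-base words CAGTGTAG and then TACACTGA and then CCAGTGTA, which are among the words described further on. Capitals mark those words and any of the other named eight-base words.
tutl intron, chr2L:4292654-4292854: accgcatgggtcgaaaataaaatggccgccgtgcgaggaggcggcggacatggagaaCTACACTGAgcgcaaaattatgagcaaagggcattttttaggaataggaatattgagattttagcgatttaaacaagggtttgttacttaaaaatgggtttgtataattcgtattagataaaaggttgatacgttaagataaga
Svil intron, chr3L:2486592-2486792: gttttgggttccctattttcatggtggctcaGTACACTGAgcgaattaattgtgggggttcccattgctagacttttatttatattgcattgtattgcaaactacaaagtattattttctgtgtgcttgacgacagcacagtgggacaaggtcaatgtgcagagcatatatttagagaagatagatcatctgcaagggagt
CG32986, nearest gene, intergenic, chr2L:8860885-8861085: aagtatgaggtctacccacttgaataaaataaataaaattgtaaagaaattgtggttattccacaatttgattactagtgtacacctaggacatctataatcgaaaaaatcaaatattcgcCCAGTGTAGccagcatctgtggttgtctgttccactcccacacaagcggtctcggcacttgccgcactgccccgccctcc

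The strongest weak distal peaks illustrate the upper edge of the class. The first lay in the first intron of Evi5, which encodes a protein with a Rab GTPase-activating domain, 2576 bp from the nearest start site. Its signal was 116.578 in the pooled list and 55.0, 29.1 and 26.6 in the lists of replicates 1, 2 and 3. The second lay in intergenic DNA with Syx7, a syntaxin of vesicle fusion, as the nearest gene. It had 116.505 in the pooled list and 59.0, 31.8 and 29.1 in the 3 replicates. The third, in an intron of bves, a Popeye-domain membrane protein, had 65.8, 31.7 and 28.2 in the replicates. The next 7 belonged to introns of CG7991, ed (a cell adhesion protein), CG32066, Lmpt (a LIM-domain protein), CanA-14F (a calcineurin catalytic subunit) and Svil (an actin-binding supervillin), and to intergenic DNA next to RasGAP1, a GTPase activator of Ras. All 10 were matched by a peak in each replicate list. The RasGAP1 peak stood apart, with 196.4 in replicate 1 against 23.2 and 25.7 in replicates 2 and 3. Its summit lay 199 bp from the summit of an IDR peak, whereas the other strongest peaks lay between 1273 and 27358 bp from one. The 3 replicate lists are not on a common scale, so these values describe each list separately.

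Replicates recovered weak distal peaks unevenly. A weak distal peak counted as matched when a peak of the replicate's relaxed list covered at least 50% of it. Replicate 1, with 19304 peaks, matched 81.8% of the weak distal peaks, replicate 2, with 19033 peaks, matched 69.8%, and replicate 3, with 16102 peaks, matched 56.5% (mean 69.3% ± 12.7, SD, n = 3). For reproducible distal peaks the shares were 99.1%, 99.4% and 98.2%. The replicate lists covered 5.25%, 4.95% and 4.27% of the 6 chromosome arms. In all, 2379 weak distal peaks (32.9%) were matched in all 3 lists, 3144 (43.5%) in 2, 1604 (22.2%) in 1 and 97 (1.34%) in none. Among those found in exactly 2 lists, replicates 1 and 2 were the pair for 1798, replicates 1 and 3 for 840, and replicates 2 and 3 for 506. The pooled list was made from the same 3 libraries, so these shares are descriptions and were not tested.

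Signals of weak distal peaks were ordered less alike between replicates. Over the 2379 peaks matched everywhere, Spearman's rho was 0.413 between replicates 1 and 2. It was 0.274 between 1 and 3 and 0.228 between 2 and 3. Over the 2590 reproducible distal peaks matched everywhere it was 0.825, 0.774 and 0.781. The pooled signal of the weak peaks spanned 46.1 to 116.578 and that of the reproducible ones 116.584 to 3325, and the part of this in the lower rho was not tested. The median distance between the pooled summit and that of the matched replicate peak was 12, 29 and 28 bp for weak distal peaks and 10, 19 and 19 bp for reproducible ones.

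Weak distal peaks lay mainly in introns and in intergenic DNA, as reproducible ones did, but a larger share fell in coding exons. Introns held 57.4% of weak summits (95% Wilson interval 56.2 to 58.5) against 69.4% of reproducible ones (Fisher's exact test, two-sided, adjusted p = 1.78e-27 over the 6 location classes). Intergenic DNA held 32.2% against 27.6% (adjusted exact p = 1.56e-05). Coding exons held 391 weak summits, or 5.41% (4.91 to 5.96), against 6 reproducible summits, or 0.224% (adjusted exact p = 4.73e-45). The 3' UTR share was 2.27% against 0.673% (adjusted exact p = 3.06e-08), and the 5' UTR share 1.04% against 0.524% (adjusted p = 0.0192). Non-coding exons held 1.69% and 1.57%, a difference that did not pass the test (adjusted exact p = 0.724). Leaving out a replicate, here and below, kept the weak and reproducible peaks matched in both other lists, and the pooled list stayed the same. Matching rose with signal, so these sets hold more of the stronger weak peaks. Without replicate 1, 2 or 3 the coding share was 3.47%, 3.57% and 2.32%, and in the upper 50% by signal 1.44%. Each was still above the reproducible share (Fisher's exact test, largest adjusted p = 3.85e-07). Each p-value here treats peaks as the units of 1 experiment with 3 libraries and says nothing of another experiment. Cuts by signal or q-value, here and below, follow the ranking that separated weak from reproducible peaks. Comparisons of such subsets with reproducible peaks are therefore descriptions.

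Set beside the bases available, weak distal peaks lay between the reproducible peaks and the genome in introns and coding exons. Of the bases over 500 bp from every start site, 45.6% were intronic, 31.5% intergenic and 15.9% coding. The share of weak peaks over the share of bases was thus 1.26 in introns, 1.02 in intergenic DNA and 0.341 in coding exons, and for reproducible peaks it was 1.52, 0.876 and 0.0141. Within introns, 57.1% of weak summits lay in a first intron of some transcript, against 68.6% of reproducible summits and 43.4% of intronic bases. That difference between the peak sets passed Fisher's exact test (two-sided, unadjusted p = 1.44e-17). When only the 481 weak distal peaks with a q-value of at most 0.01 were kept, introns held 65.1% and coding exons 0.416%, and neither share differed from the reproducible peaks past the threshold (adjusted exact p = 0.185 and 0.526). That coding share rests on 2 weak summits, set against 6 reproducible ones, so the absence of a call there decides little.

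**Figure D1:**
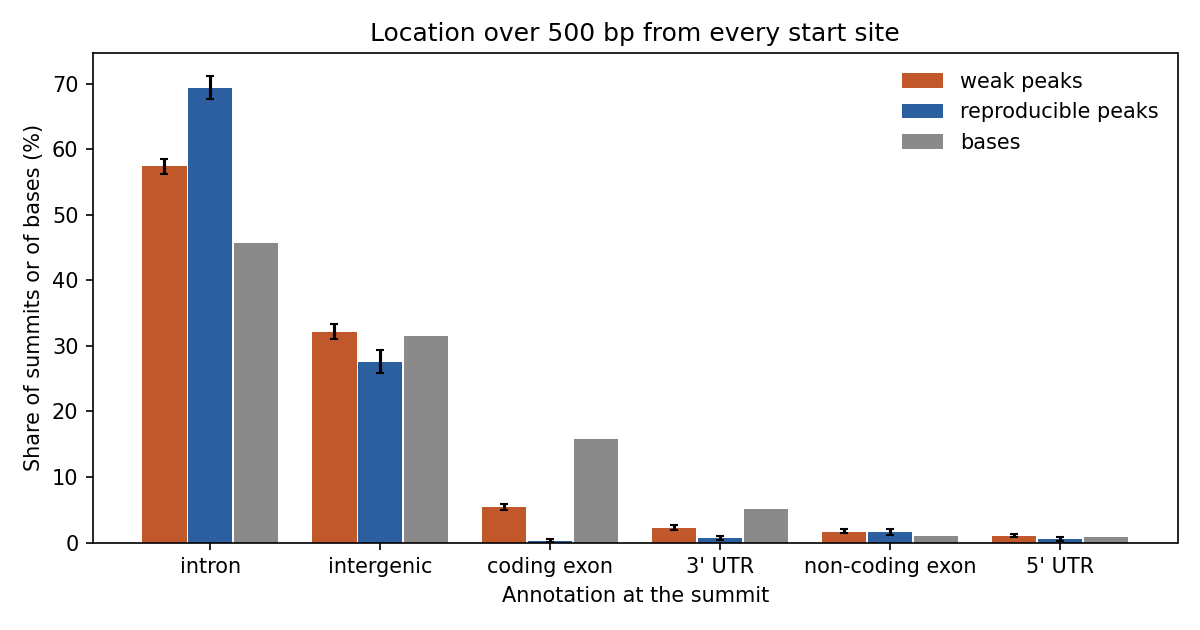
Share of summits (weak distal peaks, 7224; reproducible distal peaks, 2674) in each annotation class, with 95% Wilson intervals as error bars, beside the share of all bases over 500 bp from every start site. Introns hold 57.4% of weak and 69.4% of reproducible summits, and coding exons 5.41% and 0.224%.

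Few weak distal peaks lay in transposable elements. Annotated elements took up 6.73% of the distal bases but held 38 weak summits, or 0.526%, and 9 reproducible ones, or 0.337%, a difference that did not pass the test (Fisher's exact test, two-sided, unadjusted p = 0.253). How reads from repeated copies were placed is unknown. Of the 38, 20 lay in INE-1, a short ancient element with many copies in fly genomes. No other family held over 2. The strongest, in an intergenic INE-1 copy, had a signal of 109.7 and was matched in all 3 replicate lists.

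The location of weak distal peaks changed with their strength. In quartiles from the strongest to the weakest, the share in coding exons was 0.498%, 2.38%, 7.97% and 10.8%, and the share in introns 64.3%, 59.6%, 53.9% and 51.7%. The intergenic share stayed between 31.2% and 33.3%. The share matched in all 3 replicate lists was 75.6%, 40.1%, 13.3% and 2.71% in the same order. The coding shares thus ran from 0.498% in the strongest quartile, beside 0.224% in reproducible distal peaks, to 10.8% in the weakest, beside 15.9% of bases. Matching showed the same ordering: coding exons held 11.3% of the 97 weak distal peaks found in no replicate list, 10.3% of those found in 1, 5.25% of those in 2 and 2.06% of those in all 3. The quartiles were cut from the signal that selected the peaks, so the trend is given as a description.

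**Figure D2:**
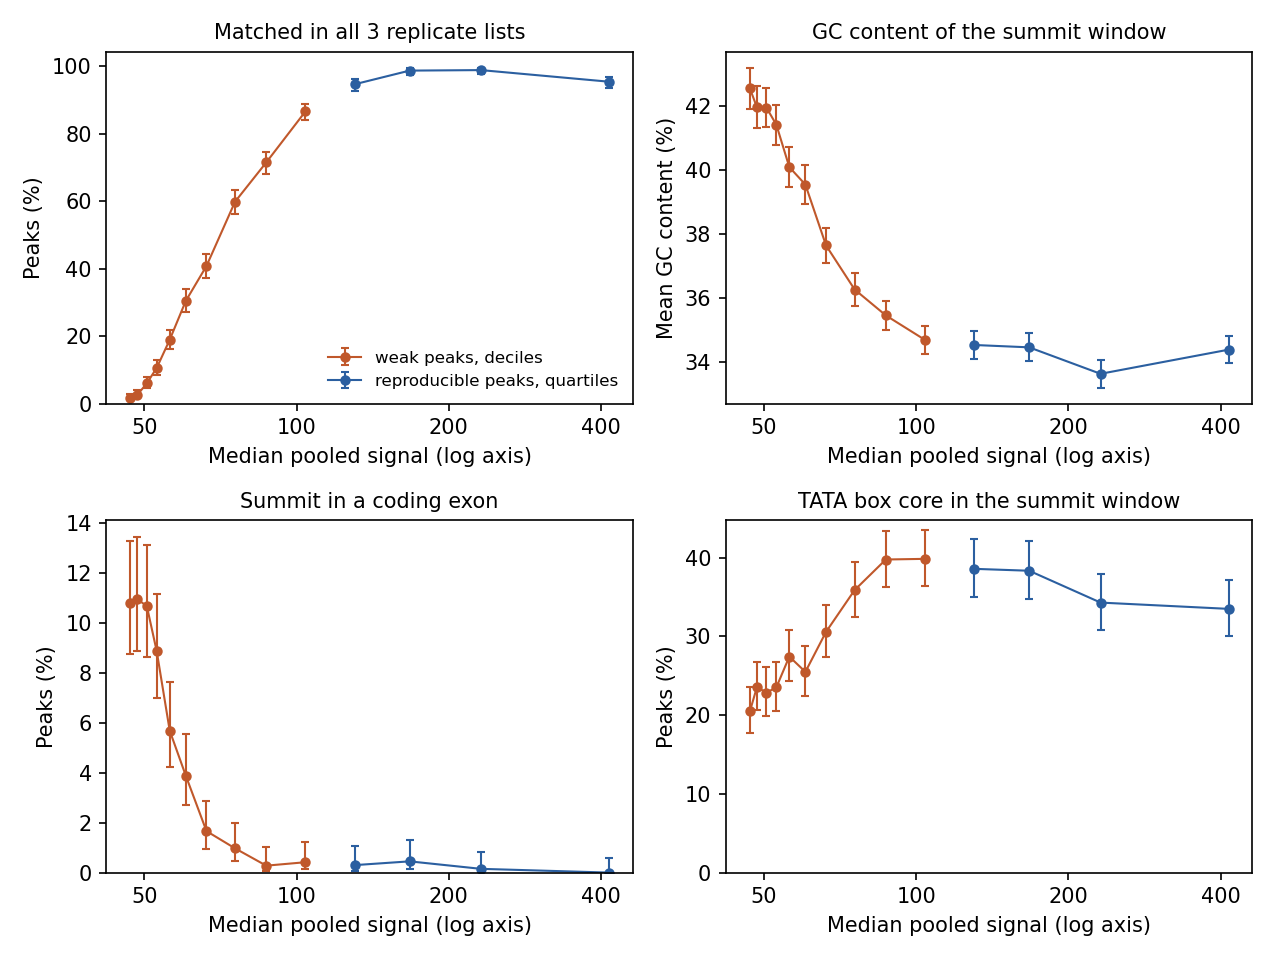
Weak distal peaks in deciles (orange) and reproducible distal peaks in quartiles (blue), each at its median pooled signal on a log axis. Panels give the share matched in all 3 replicate lists, the mean GC content of the summit window, the share in coding exons and the share with a TATA box core. Error bars are 95% intervals over peaks. From the weakest to the strongest decile, matching went from 1.80% to 86.6% and GC content from 42.5% to 34.7%.

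Weak distal summits were poorer in G and C than their surroundings, but less so than reproducible summits. Within 100 bp of the summit, GC content averaged 39.2% (SD 8.40 over 7224 peaks) in weak distal peaks and 34.3% (SD 5.75 over 2674) in reproducible ones. Windows 1000 bp away averaged 41.4% and 41.0%. Summits of the weak distal peaks matched in each replicate averaged 38.6% ± 1.14 GC (SD, n = 3 replicates), and those of reproducible peaks 34.5% ± 0.341, measured at the replicate's own summits. The lowest replicate value for weak peaks, 37.7%, exceeded the highest for reproducible peaks, 34.9%. In quartiles of falling signal, GC content was 35.3%, 38.1%, 41.0% and 42.2%. Coding summits were the richest, at 52.8% in 391 weak distal peaks, against 38.0% in the 4146 intronic and 38.8% in the 2326 intergenic ones.

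The dip in GC content at the summit was deeper in the stronger quartiles of weak distal peaks. In 51 bp windows, weak distal peaks fell to 38.3% GC at the summit, rose to 43.8% and 44.0% at 250 bp on either side, and came back to 42.0% at 2000 bp. Reproducible distal peaks fell to 31.2% and rose to 45.9% and 46.1% at the same distances. The strongest quartile of weak distal peaks came to 33.2% at the summit. In the weakest quartile the summit value, 42.3%, lay below the 43.3% found 250 bp away and not below the 42.1% and 41.8% found 2000 bp away. The share of positions in coding sequence was 5.41% at weak summits and 10.4% and 10.7% at 2000 bp to either side.

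**Figure D3:**
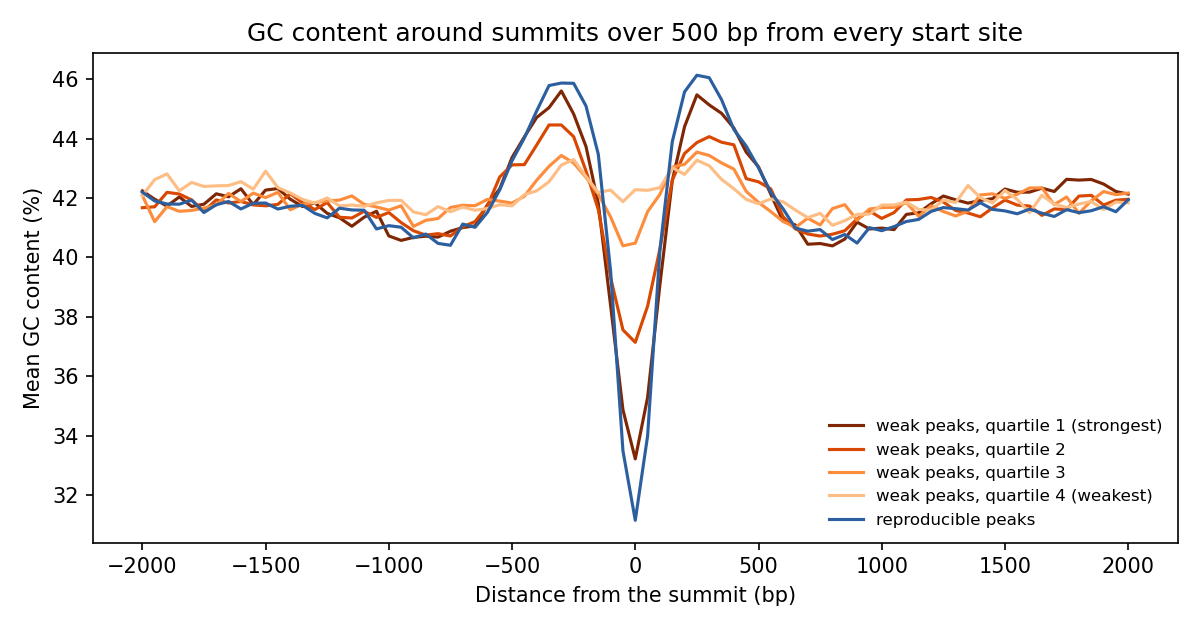
Mean GC content in 51 bp windows by distance from the summit, for weak distal peaks in quartiles by signal (orange shades, darkest strongest) and for reproducible distal peaks (blue). The dip at the summit reaches 33.2% in the strongest quartile of weak peaks and 31.2% in reproducible peaks, and the weakest quartile has 42.3% there.

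The Sox core was not more frequent at weak distal summits than next to them. AACAAT was present within 100 bp of 1529 weak summits (21.2%, 95% Wilson interval 20.2 to 22.1) and in 1510 flanking windows of the same size 1000 bp away (20.9%), a ratio of 1.01 (exact McNemar test, two-sided, adjusted p = 0.805 over 18 patterns). At reproducible distal peaks it was present at 24.4% of summits and 21.1% of flanks, a ratio of 1.16 (exact McNemar test, adjusted p = 0.00827). The shorter core ACAAT, which the longer one contains, behaved alike, with 46.7% against 45.4% at weak peaks (adjusted exact p = 0.283) and 51.3% against 43.8% at reproducible ones (adjusted p = 2.33e-07). Reproducible summits had 34.3% GC against 41.0% in their flanks. Of other A- and T-rich patterns there, TATAAA stood at 1.55, TAATTA at 1.27, AGATAA at 1.20 and TGCATA at 1.18 times the flanks. Below the flanks were ACAAAG at 0.944, ATCGAT at 0.910 and TATCGATA at 0.5625, the last at 9 summits and 16 flanks. Whether the Sox core exceeds what base makeup gives at reproducible peaks was not tested. Per 1000 weak peaks, the 50 bp at the summit held 63.7 copies of AACAAT. Those centred 500 bp away held 59.8 upstream and 65.1 downstream along the plus strand. For reproducible peaks these values were 83.0 at the summit, 55.3 upstream and 66.2 downstream. Among the 2074 six-base words that could be ranked by their ratio of summits to flanks in weak distal peaks, AACAAT stood at place 754, and among the 30 words with the same base makeup at place 27. With the flank on the other side the ratio was 0.965 and with flanks 2000 bp away 0.993, neither past the threshold (adjusted exact p = 0.523 and 0.840). The ratio was 1.23 among the 481 weak peaks with a q-value of at most 0.01 and 1.07 to 1.10 among weak peaks matched in both of any 2 replicates, and it did not pass there either (lowest adjusted exact p = 0.0565). In the upper 50% by signal it was 1.08 (exact McNemar test, adjusted p = 0.219). In quartiles of falling signal, AACAAT was present at 23.5%, 20.9%, 20.8% and 19.4% of weak summits. Flanks were not counted by quartile, and the trend was not tested.

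Of the 18 patterns, sought on both strands, 2 (11.1%) were more frequent at weak distal summits than in flanks and 1 (5.56%) less frequent, at an adjusted p under 0.05. The TATA box core TATAAA was present at 28.9% of summits and 23.3% of flanks, a ratio of 1.24 (exact McNemar test, adjusted p = 8.76e-14). The site TGCATA, bound by POU-domain factors such as Vvl, was present at 16.3% and 13.2%, a ratio of 1.23 (adjusted exact p = 1.90e-06). The Grainy head core AACCGG was present at 3.24% and 4.42%, a ratio of 0.734 (adjusted exact p = 0.00164). In the 1076 pairs of weak summit and flank whose GC content differed by at most 2 percentage points, 0 of the 18 patterns passed by the exact McNemar test in either direction (2 had an unadjusted p under 0.05), and the 3 ratios were 1.09, 1.33 and 0.813 (adjusted p = 0.588, 0.0553 and 0.622). The ratio of TGCATA was thus no lower there, in a smaller set.

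**Figure D4:**
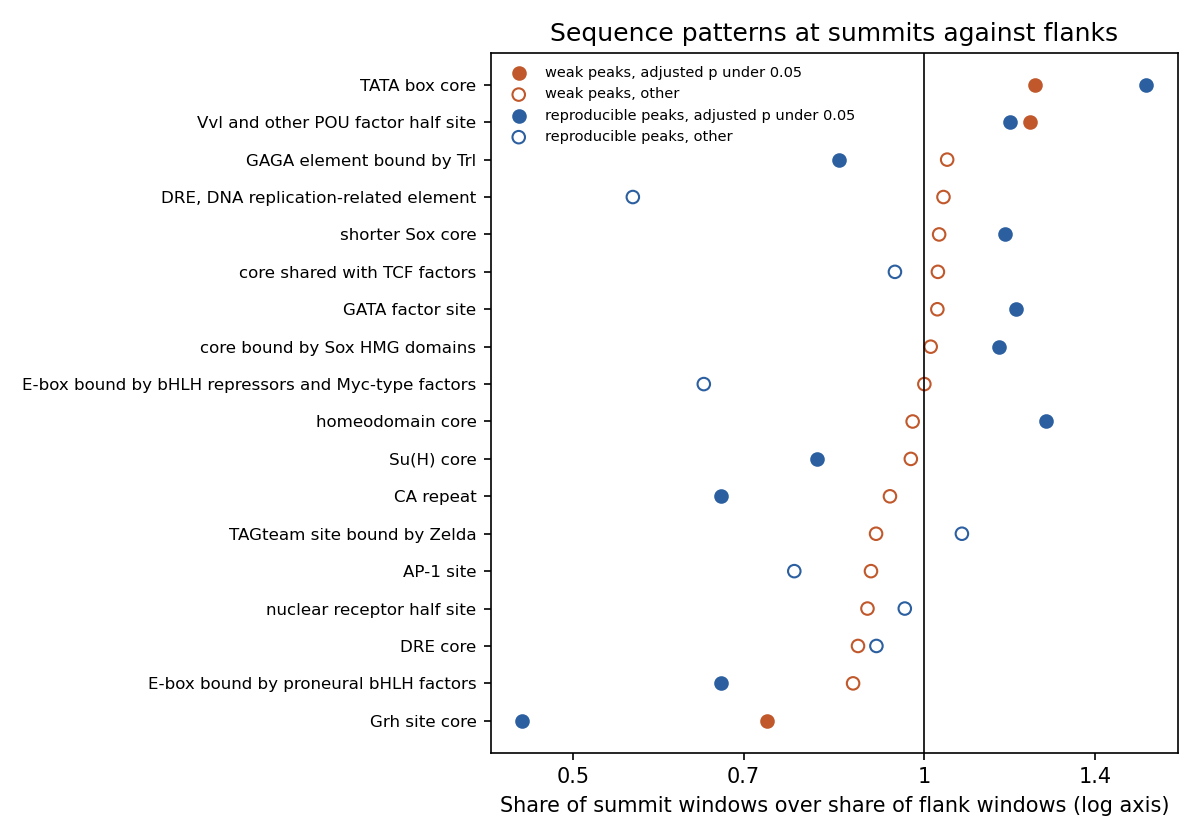
Ratio of the share of summit windows to the share of flank windows holding each of 18 sequence patterns (log axis), for weak distal peaks (orange) and reproducible distal peaks (blue), filled where the exact McNemar test gave an adjusted p under 0.05. Weak peaks range from 0.734 (Grainy head core) to 1.24 (TATA box core), and reproducible peaks from 0.452 to 1.55 for the same patterns.

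Compared directly with reproducible distal summits, weak ones held 6 of the 18 patterns more often (33.3%) and 5 less often (27.8%) by Fisher's exact test. The lower group comprised TATAAA (28.9% against 36.2%, adjusted exact p = 1.40e-10), the homeodomain core TAATTA (14.2% against 18.5%, adjusted p = 1.31e-06), the GATA factor site AGATAA (12.0% against 15.8%, adjusted p = 4.06e-06) and both forms of the Sox core, with an adjusted p of 0.00149 for AACAAT. The higher group comprised the CA repeat (16.9% against 12.5%, adjusted exact p = 3.87e-07), the Grainy head core (3.24% against 1.94%), the Su(H) core, the GAGA element and the 2 E-boxes. Weak summits had the higher mean GC content, 39.2% against 34.3%, and the patterns of the lower group are rich in A and T. Among windows with a GC content of 30 to 40%, 3347 weak and 1716 reproducible, Fisher's exact test called 0 of 18 patterns, and 1 had an unadjusted p under 0.05. There the ratio of weak to reproducible shares was 0.998 for AACAAT (adjusted exact p = 0.972) and 1.07 for TATAAA, which turned direction (adjusted p = 0.543). Leaving out replicate 3, so that peaks had to be matched in replicates 1 and 2, also lowered the number of patterns that differed from 11 to 3, and leaving out replicate 1 lowered it to 7. In the windows of 30 to 40% GC the differences in introns (62.1% of weak peaks, adjusted exact p = 2.68e-07) and in coding exons (0.717%, adjusted p = 0.00460) still passed.

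Over all 2080 six-base words, 354 (17%) were more frequent at weak distal summits than in flanks and 459 (22.1%) less frequent. Compared with reproducible summits, 772 (37.1%) were more and 425 (20.4%) less frequent at weak summits. Of the 36 words without G or C, 33 were more frequent at weak summits than in flanks and 0 less frequent. Of the 36 words made only of G and C, 0 were more frequent and 16 less. The lowest ratios belonged to CGCGAG at 0.586 (adjusted exact p = 6.15e-06) and then to TCGCGA with 0.607 and CCGACG with 0.612. The words CGGACG at 0.634 and CCGTCG at 0.652 completed the lowest 5. In pairs of similar GC content these 5 no longer passed the exact McNemar test (adjusted p between 0.317 and 1), in a set of 1076 pairs in place of 7224. There the ratio was 0.469 for CGCGAG and 0.588 for TCGCGA, as low as before, 0.815 for CGGACG and 0.923 for CCGTCG, and it turned to 1.10 for CCGACG.

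The highest ratios belonged to words of middling GC content. AGGGTA was present at 7.70% of weak summits and 4.06% of flanks, a ratio of 1.90 (exact McNemar test, adjusted p = 1.78e-18 over all words). For AGTGTA the shares were 14.3% and 7.64%, a ratio of 1.87 (adjusted exact p = 1.05e-34). Next came ACAGTG with 1.81 and ACACTG with 1.73, followed by ACTGAG with 1.68. All 5 also passed in the 1076 pairs of similar GC content, with ratios of 1.80 to 2.13 (exact McNemar test, largest adjusted p = 0.0373 over all words). The 5 words were chosen for their ratio in the full set, which holds these pairs, so the second result is not independent of the choice. The words overlap in letters, since ACACTG reads CAGTGT on the other strand. At reproducible distal summits the same words stood at 2.01, 2.79, 2.25, 2.25 and 1.90 times their flanks. AGTGTA was less frequent at weak than at reproducible summits (14.3% against 19.2%, Fisher's exact test, adjusted p = 6.46e-08 over all words).

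Longer words, examined after the six-base words had been seen, extended the same letters. Of all 32896 eight-base words, 290 (0.882%) were more frequent at weak distal summits than in flanks and 55 (0.167%) less frequent. Among words at 60 or more summits, the 8 of highest ratio began with CAGTGTAG, found at 100 weak summits and 17 flanks (5.88 times, adjusted exact p = 7.10e-12), and TACACTGA, found at 187 and 35 (5.34 times, adjusted p = 6.44e-23). CACTGAGA was the most frequent of the 8, at 238 summits and 55 flanks (4.33 times, adjusted exact p = 8.94e-24). The others were CCAGTGTA with 4.82 times and CAGTGTAC with 4.19, then CTGTGTAC with 4.00 and CTCAGTGC with 3.98, and last ATACCCTA with 3.88. One or more of the 8 occurred at 749 weak summits (10.4%) and in 2.81% of their flanks. At reproducible distal peaks the shares were 16.8% and 3.52%. By quartiles of falling signal the summit share in weak peaks was 15.5%, 11.7%, 8.08% and 6.20%, while the flank share stayed between 2.38% and 3.38%. In the 1076 pairs of similar GC content it was 12.2% of summits and 2.42% of flanks. The 8 words were chosen for their ratio, so their joint shares are a description, and no factor is assigned to them. The windows in tutl, Svil and next to CG32986 printed above hold 2 of them each.

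AGTGTA was not most frequent at the very centre of the stronger peaks. In reproducible distal peaks, it occurred 60.2 and 65.1 times per 1000 peaks in the 50 bp windows centred 100 bp to either side of the summit but 33.3 times at the summit itself. In weak distal peaks the values were 41.1 and 41.1 at 100 bp and 37.9 at the summit, against 17.6 and 19.0 at 500 bp. TATAAA behaved otherwise. It rose to 106.2 copies at the summit of weak peaks, from 69.6 and 72.7 at 500 bp, and to 159.7 at that of reproducible peaks.

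**Figure D5:**
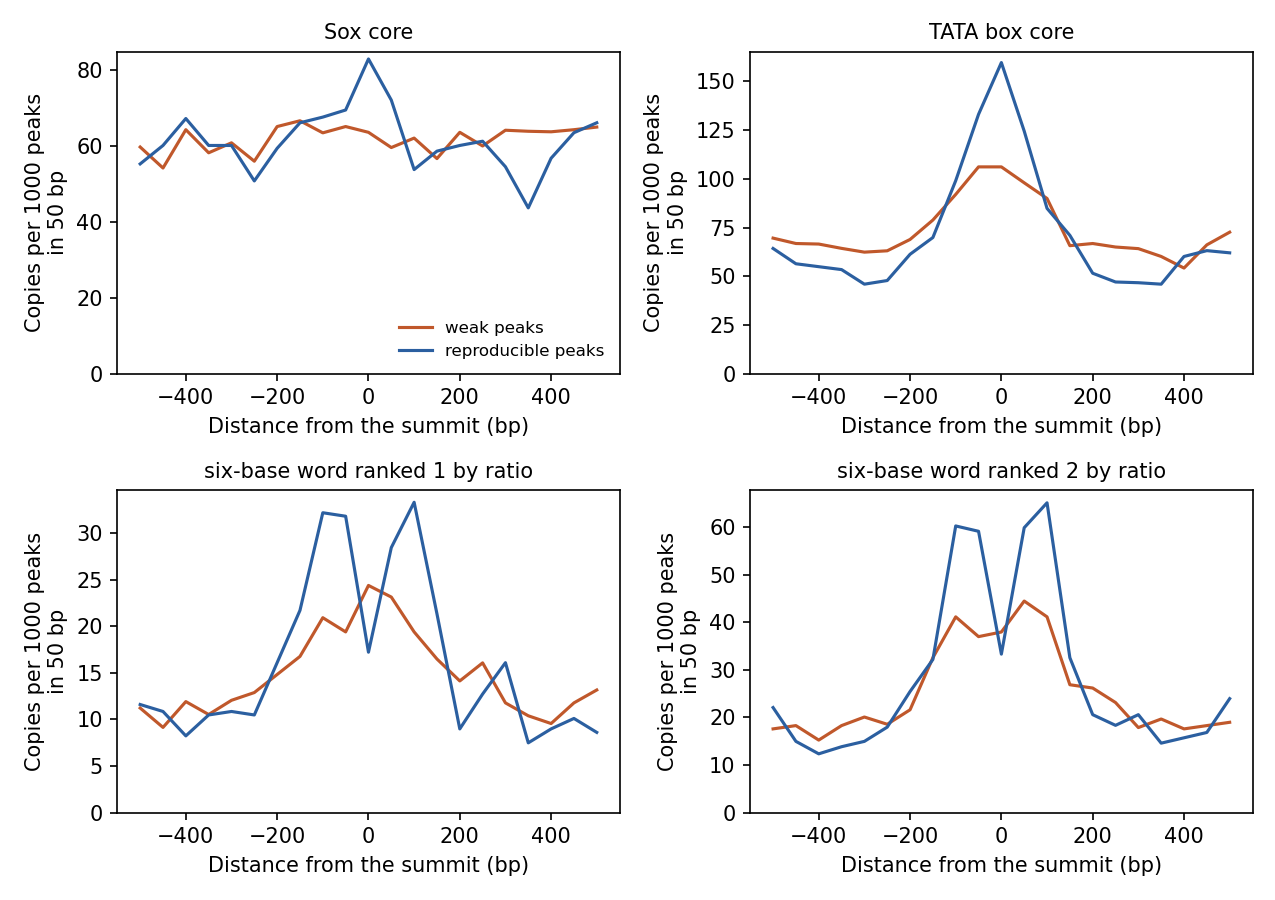
Copies per 1000 peaks in 50 bp windows by distance from the summit, for the Sox core, the TATA box core and the 2 six-base words of highest ratio at weak peaks. The Sox core is flat in weak distal peaks (63.7 at the summit), the TATA box core is centred in both sets, and the words of highest ratio have 2 maxima beside the summit in reproducible peaks (65.1 against 33.3 at the summit for the word ranked second).

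Weak distal peaks were found on all 6 arms. Their density was 57.5 per Mb on 2L, 48.6 on 2R, 60.1 on 3L, 55.1 on 3R, 49.2 on X and 20.03 on the small, largely heterochromatic chromosome 4. X held 16.0% of weak against 20.5% of reproducible distal peaks (Fisher's exact test, two-sided, adjusted p = 1.73e-06 over the 6 arms). That difference did not pass in several smaller sets. In the upper 50% by signal X held 19.3% (adjusted exact p = 0.630), and among the 481 weak peaks with a q-value of at most 0.01 the direction turned, with 22.9% on X (adjusted exact p = 0.296). Without replicate 1, 2 or 3 it held 19.1%, 18.98% and 18.5%, past the threshold in none (adjusted exact p = 0.205, 0.209 and 0.131). Chromosome 4 held 27 weak and 2 reproducible distal peaks (adjusted exact p = 0.0337). That call was lost in the upper 50% by signal, with 7 weak peaks (adjusted exact p = 0.630), at a q-value of at most 0.01, with 2, with start sites over 1000 bp away, with 22, without replicate 1, 2 or 3, with 8, 10 and 15 weak peaks, and when starts of transposable elements were counted, with 20 (adjusted exact p = 0.115). The other 4 arms did not pass (adjusted p between 0.143 and 0.894). Neighbouring peaks on an arm are not independent, but the tests by arm treat them as if they were. Their p-values may thus be too small. Over 132 bins of 1 Mb, the number of weak distal peaks had a median of 58 and a highest value of 107. It followed the number of reproducible distal peaks with a Pearson r of 0.805, a description over bins of the same libraries. The 15 bins without a reproducible distal peak held 49 weak ones.

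Weak distal peaks lay farther from IDR summits than reproducible distal peaks lay from each other or from other IDR summits. The median distance was 8262 bp against 2926 bp. Within 1000 bp of an IDR summit lay 10.2% of weak distal peaks (95% Wilson interval 9.53 to 10.9) and 24.5% of reproducible ones. Over 10000 bp from every IDR summit lay 3270 weak distal peaks, or 45.3%. A separate group sat right beside IDR peaks. There were 246 weak summits (3.41%) between 199 and 249 bp from an IDR summit, at a median of 203 bp, and 11 over 250 and up to 500 bp away. Such a group was not particular to weak peaks. Of the reproducible distal peaks, 180 (6.73%) lay within 250 bp of another IDR summit and 198 (7.40%) within 500 bp. Of the weak distal peaks, 7221 were 396 bp wide, and 250 touched an IDR peak. The median signal of the 246 was 69.5, and none was in a coding exon.

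Weak distal summits were found in 2035 of 13945 protein-coding genes (14.6%), and 1073 of these held exactly 1. Long genes held most of them. The share was 1.13% among genes up to 2000 bp and 89.6% among those over 50000 bp, and genes with a weak distal summit had a median length of 16176 bp against 1841 bp for the rest. A summit over 500 bp from a start site cannot fall in the shortest genes, so the count follows length in part by construction. In 1345 of the 2035 genes there was no reproducible distal summit.

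The gene with the most was Tet, which encodes a methylcytosine dioxygenase (FBgn0263392, dm6 3L, 2786207 to 2879158, minus strand), with 28 weak and 10 reproducible distal summits, or 3.01 weak ones per 10 kb. The value over all protein-coding genes was 0.519 per 10 kb. Next came kirre, an immunoglobulin-domain protein of myoblast fusion, with 27 weak and 19 reproducible summits in 394149 bp, or 0.685 per 10 kb. SKIP, a potassium channel interactor, and CG32816 held 22 each. CG43658 and Ten-a, a teneurin of synaptic partner matching, held 21 each, although Ten-a had 2 reproducible summits against 9 in CG43658. The RNA-binding gene heph held 17 weak and 2 reproducible summits. The zinc-finger gene jing and Snoo, of the Ski and Sno family, held 16 weak summits each, and CG42238 held 15.

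The gene lists below were written with results of these data known, so their counts are set beside those of other genes without a test. Over all protein-coding genes 14.6% held a weak distal summit, at 0.519 per 10 kb. By length, the share was 6.85% at 2000 to 5000 bp (0.229 per 10 kb), 51.2% at 10000 to 20000 bp (0.622 per 10 kb) and 81.0% at 20000 to 50000 bp (0.738 per 10 kb). Among genes of the sensory bristle lineage, 20 of 32 held a weak distal summit (62.5%), with a median gene length of 15243 bp and 0.734 summits per 10 kb. The RNA-binding gene shep held 11, and brat, a translational repressor, and ush, a cofactor of GATA factors, held 8 each. In the list of wing hinge and wing patterning genes, 20 of 37 held one (54.1%, 0.879 per 10 kb, median length 16402 bp), led by hth, a homeodomain partner of Hox proteins, with 15, the cadherin ds with 11 and the mesodermal regulator twi with 8. Notch signalling genes, with a median length of 4919 bp, stood at 12 of 26 (46.2%) and at 1.04 per 10 kb. Of these, the coactivator mam held 13, the protease kuz 7 and the glycosyltransferase fng 4.

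Ecdysone response genes, which time the change from larva to pupa, stood at 20 of 37 (54.1%, 0.821 per 10 kb, median length 18767 bp). The early gene Eip74EF held 11, the nuclear receptor ftz-f1 10 and the matrix metalloproteinase Mmp2 10. Of the 8 Hox genes 5 held a weak distal summit (62.5%, 0.741 per 10 kb, median length 30563 bp), beside 81.0% of all genes of 20000 to 50000 bp. Antp held 14, Ubx 7 and Abd-B 2. Other homeobox genes stood at 16 of 41 (39.0%), with a median length of 12168 bp. Of those 16, 13 held no reproducible distal summit, beside 1345 of 2035 (66.1%) over all genes with a weak one, and nub, with 6 weak ones, was among them. Neuronal genes stood at 20 of 30 (66.7%), led by kirre and Ten-a and by fru with 13. They were long, with a median of 42100 bp, and their density of 0.526 per 10 kb was near the value over all genes. Muscle genes stood at 11 of 25 (44.0%, 0.680 per 10 kb, median length 12453 bp), beside 51.2% of all genes of 10000 to 20000 bp. The integrin gene mew held 9, the integrin gene if 6 and Zasp52, a Z-disc protein, 5. The last 2 lists hold mostly short genes, beside 1.13% and 0.103 per 10 kb among all genes up to 2000 bp. Of 49 cytoplasmic ribosomal protein genes 1 held a weak distal summit, RpS26 (2.04%, 0.128 per 10 kb, median length 1413 bp). Cuticle protein genes stood at 4 of 28 (14.3%, 0.658 per 10 kb, median length 1437 bp), a share near that over all genes. They held 5 summits in all, 2 of them in Cpr73D, a gene of 18590 bp.

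Sox15 itself (FBgn0005613, dm6 2R, 14201390 to 14212413, minus strand) held 2 weak distal summits and no reproducible one. The first, with a signal of 69.4 and a q-value of 0.206 in the pooled list, lay in a first intron and was matched in replicate 1 alone. The second, with 50.6 and a q-value of 0.794, also lay in a first intron and was matched in replicates 1 and 3. Both were rich in G and C, at 54.2% and 58.7%, against a mean of 39.2% over weak distal peaks. Upstream of the gene lay 2 stronger members with signals of 94.95 and 96.04, both matched in all 3 lists. Both lay nearer to another start site than to that of Sox15. The former was 1357 bp from the nearest start site and 2053 bp from that of Sox15. The latter was 842 and 2568 bp away, with RpS23 as its nearest gene. The replicate signals of the former were 62.5, 12.7 and 24.5, and those of the latter 48.4, 35.2 and 21.4. The series holds tagged animals only, and whether the tagged copy affects reads at its own locus was not tested.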

How the data were processed

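The deposited files are peak lists in dm6 coordinates: a relaxed list for each of 3 replicates and for the pool, and the optimal IDR set, per the names of the files. The authors deposited a signal value of unstated scale and a −log10 q-value for each peak. Aligner, caller and read counts: not given in the sources used here. Depth is therefore unknown, and intervals cover counting of peaks only. Nothing beyond the labelled replicate numbers says how the replicates were grown. Column 10 of each list gave the summit.

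Genes, transcript starts and annotated transposable elements came from Ensembl release 115 (BDGP6), and sequence from RefSeq Release 6, whose arm lengths fit the lists. Starts of transposable elements were not counted as start sites. Where annotations overlapped, a summit took the first of 5' UTR, coding, 3' UTR, other exon and intron, and was otherwise intergenic. Windows ran 100 bp to each side of the summit. Flanks lay 1000 bp away, upstream or downstream by the parity of the summit position. Tests were the exact McNemar test (summit against flank) and Fisher's exact test (weak against reproducible distal peaks), two-sided, with Benjamini-Hochberg adjustment within each family and a threshold of 0.05. Intervals are 95% Wilson intervals. Python 3.11.15, numpy 2.4.6, pandas 2.3.3 and scipy 1.17.1 were used, and the tests were tested on simulated data.

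The members, patterns and gene lists were chosen with earlier results of these data known. Genes named are Sox15, those at the 10 strongest members, the 10 with most members and up to 3 per list. Alternatives changed the start site distance, the members kept, the replicate left out, the matching overlap, the windows and the flanks. The eight-base words, the other flank side, the counting of transposable element starts, the GC range and the alternatives for the shares on X and chromosome 4 were added after seeing the data.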

Additional observations from a re-analysis of the deposited data

How the results depend on the processing

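Directions held in introns and coding exons under every alternative run. The calls did too, except among the 481 weak distal peaks with a −log10 q-value of at least 2, where introns held 65.1% and coding exons 0.416%. The latter share rests on 2 weak summits. The size of the coding share moved, to between 2.32 and 3.57% with 1 replicate left out and to 1.44% in the upper 50% by signal. The share on X, 16.0% in all, was past the threshold in no set with a replicate left out (18.5 to 19.1%) and turned to 22.9%, above the reproducible peaks, at a −log10 q-value of at least 2. The ratio of AACAAT at summits over flanks never passed the threshold and fell below 1 with start sites over 1000 bp away (0.987), with flanks 2000 bp away (0.993) and with the flank on the other side (0.965). The 5 six-base words of highest ratio passed under every alternative, in sets that overlap the one they were chosen from.

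Other member sets moved several values. With start sites over 250 bp away there were 59.8 peaks per Mb, 16.3% of genes held one, and 2 patterns were less frequent at summits than in flanks. With start sites over 1000 bp away these were 46.4 per Mb and 12.0% of genes, and 9.42% of weak peaks lay within 1000 bp of an IDR summit. Without peaks that overlap an IDR peak, 6.98% lay that near, 2 patterns were less frequent and density was 52.1 per Mb. In the upper 50% by signal, 57.8% were matched in all 3 lists, 13.6% lay near an IDR summit, 3 patterns were less frequent at summits and 4 differed from reproducible peaks, GC content was 36.7%, density 26.98 per Mb and the share of genes 8.81%. At a −log10 q-value of at least 2, 87.7% were matched in all lists, 19.3% lay near an IDR summit, 1 pattern was more and 0 less frequent at summits by the exact McNemar test, 0 differed from reproducible peaks by Fisher's exact test (0 also at an unadjusted p under 0.05), TATAAA stood at 1.11 times its share there, GC content was 34.5%, density 3.59 per Mb and the share of genes 2.02%. Over 1000 bp from every IDR summit, 31.8% were matched in all lists, 2 patterns were less frequent, density was 48.5 per Mb and 13.7% of genes held a peak.

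Leaving out each replicate in turn kept weak peaks matched in both others, with the pooled list unchanged. That gave 39.9 to 57.8% matched in all lists used, 11.9 to 12.5% near an IDR summit, 3 to 4 patterns less frequent at summits, 3 to 8 that differed from reproducible peaks, 37.0 to 38.3% GC, 21.5 to 31.2 peaks per Mb and 8.08 to 10.1% of genes. No paired analysis was possible because the series has 1 group.

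A matching overlap of 25% gave 38.1% matched in all lists and one of 90% gave 4.94%. Within 500 bp of an IDR summit lay 3.56% and within 2000 bp 21.2%. With 1000 bp upstream added, 16.3% of genes held a peak. Windows of 50 bp gave 2 patterns less frequent at summits. Windows of 250 bp gave 4, with 5 that differed from reproducible peaks and 41.3% GC. Flanks 2000 bp away gave 3 less frequent patterns and the other flank side 2. Pairs of similar GC content gave 0 in either direction by the exact McNemar test, with CCGACG at 1.10. Windows of 30 to 40% GC gave 0 patterns that differed by Fisher's exact test, with TATAAA at 1.07. In these the sets were smaller, at 1076 pairs and at 3347 against 1716 windows.

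Depth is unknown. The labels name a possible control experiment, whose data were not used here, so the background of each list could not be measured. The density, the gene share and the matching share follow the length of the pooled list.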
